A study of Homo sapiens with 6 samples.

Results

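The interleukin-6 (IL-6) family of cytokines and receptors was examined in OVCAR8 ovarian carcinoma cells treated with leptin. It was taken as 10 genes, found by symbol among 62700 annotated genes: the ligand genes IL6, LIF, IL11 and CLCF1, and the receptor genes IL6ST, IL6R, LIFR, OSMR, IL11RA and CNTFR. The rule lists the members by name and uses no measured value, though it was drawn up with earlier results of these data known. Of these 10 genes, 9 had enough counts to be tested, and CNTFR was close to absent.

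Cytokines of this family act through receptor complexes that contain gp130, the signalling chain encoded by IL6ST. IL-6 and IL-11 first bind their own non-signalling chains (IL6R and IL11RA), whereas LIF pairs gp130 with LIFR, and oncostatin M pairs it with OSMR or LIFR. JAK kinases bound to these chains phosphorylate STAT3, and SOCS3 limits the signal. In ovarian cancer, IL-6 is known as a cytokine made by the tumour cells themselves and found in ascites. The leptin receptor belongs to the same class of receptors and also signals through JAK2 and STAT3.

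RNA was sequenced from OVCAR8 cells, an established human ovarian cancer line labelled as wild type. All cells were deprived of serum overnight. The 3 control libraries came from cells given PBS, and the 3 leptin libraries from cells given leptin at 100 ng/ml for 24 h, so serum starvation is common to both groups. The study asked which transcripts respond to leptin in connection with stem-like properties. The labels do not say whether replicates were separate cultures, so p-values measure only how these libraries vary, and that variation may be technical.

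Counts assigned to genes totalled 15609425 to 18577775 per library. The lineage factor PAX8 stood at 354 to 370 CPM (counts scaled to a common library size) in the 6 libraries, and the simple-epithelium keratin KRT8 had means of 2138 (control) and 2321 CPM (leptin). Of 8 tested markers of ovarian carcinoma and epithelium 1 changed: the keratin gene KRT19 fell from 102 to 38.7 CPM (log2 fold change -1.40, edgeR adjusted p = 0.000139), while KRT7 had 332 and 547 CPM (0.72, edgeR adjusted p = 0.166). MUC16 and CDH1 had at most 6 and 15 counts in any library. Of 9 immune markers PTPRC and CD3E had 0 counts throughout, and the summed level of all 9 was 2.21 to 2.76 CPM in controls and 2.85 to 5.07 CPM with leptin, mostly CSF1R. The 9 fibroblast markers summed to 462 to 659 and 359 to 523 CPM, mostly COL1A1, with PDGFRA and FAP at no more than 9 counts, and the 5 endothelial markers summed to 3.16 to 3.98 CPM in controls and at least 1.94 CPM with leptin, where each library was below the controls. The part of these markers in the results was not tested. Leptin replicate 1 lay at -2.15 on the first principal component (49.6% of variance), between the controls (-31 to -23.6) and the other leptin libraries (39.6 and 46.3). The median SD of log2 CPM was 0.12 among controls and 0.24 among leptin libraries.

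IL6, which encodes the founding cytokine of the family, was the member that fell. Its level was 26.4, 18.1 and 19.9 CPM in control replicates 1 to 3, and 15.3, 7.28 and 13.1 CPM in leptin replicates 1 to 3. All leptin libraries lay below all controls, leptin replicate 2 lay lowest, and the gap between the groups (15.3 against 18.1 CPM) was narrow. Means were 21.5 ± 4.39 and 11.9 ± 4.13 CPM (SD, n = 3 each), a log2 fold change of -0.85 ± 0.24 (SE; 95% confidence interval -1.38 to -0.32; edgeR adjusted p = 0.0493). In bulk RNA, fewer cells that express a gene and less RNA per cell cannot be told apart. This call lay at the threshold. It was lost without Control replicate 1 (edgeR adjusted p = 0.232), Control replicate 2 (0.0978), Control replicate 3 (0.138), leptin replicate 2 (0.0903) and leptin replicate 3 (0.132), with limma-voom (log2 fold change -0.89, adjusted p = 0.0509) and once the trend with GC content was taken out (-0.73, adjusted p = 0.0937), while DESeq2 gave -0.85 and 0.00974.

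IL6 lies on chromosome 7 at 22725884 to 22732002 (hg38, plus strand), and 9.91% of its exon bases overlap the antisense gene IL6-AS1, which had at most 9 counts in a library. RefSeq (GRCh38.p14) promoter windows, from 250 bases before to 50 after a gene start, were found for 8 members (11 windows, as some genes have several starts); LIF and CLCF1 had none. They were searched on both strands for the NF-kB consensus, the AP-1 site TGACTCA, and the STAT sites TTCCNNGAA and TTCNNNGAA, which can match the same bases. The windows of IL6 and IL11 are printed because these are the inducible ligand genes of the set with a window, and IL6 fell while IL11 did not pass the test. Capitals mark the match to the NF-kB consensus in IL6 (chr7:22726950-22727249, plus strand) and to the AP-1 site, read on the opposite strand, in IL11 (chr19:55370414-55370713, minus strand), each 5′ to 3′ along the gene.

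IL6: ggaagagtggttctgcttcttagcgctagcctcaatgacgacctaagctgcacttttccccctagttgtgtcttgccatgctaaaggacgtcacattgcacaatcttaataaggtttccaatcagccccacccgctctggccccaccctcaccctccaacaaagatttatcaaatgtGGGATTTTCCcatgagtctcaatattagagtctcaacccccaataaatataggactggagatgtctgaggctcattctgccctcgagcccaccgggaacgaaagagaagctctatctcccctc
IL11: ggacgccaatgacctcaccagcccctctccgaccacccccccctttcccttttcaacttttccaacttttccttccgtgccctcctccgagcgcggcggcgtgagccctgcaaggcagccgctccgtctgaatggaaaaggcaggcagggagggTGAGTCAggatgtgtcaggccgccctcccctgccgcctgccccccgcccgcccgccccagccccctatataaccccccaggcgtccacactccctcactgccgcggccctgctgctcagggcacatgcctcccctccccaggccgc

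The IL6 match begins 73 bases before the RefSeq start, which lies inside the longer gene model of the files, and the IL11 match begins 96 bases before the RefSeq start of that gene. An NF-kB match was present in 3 of the 11 member windows, those of IL6, IL6ST and one of IL11RA, compared with 11.3% of all 35116 windows. The AP-1 site was in 2 windows (IL11 and IL6R; 4.95% of all windows). The spaced STAT sites were in 1 and 2 windows, all of LIFR (4.45% and 7.66% of all windows). Such matches describe the letters of these windows and not binding in these cells.

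LIF, whose product is known for holding stem cells undifferentiated, had the highest level of the family per length. Its level was 111, 117 and 118 CPM in the controls and 109, 72.6 and 97.9 CPM in leptin replicates 1 to 3. The leptin libraries were all below the controls, but leptin replicate 1 lay just under the lowest control. Means were 115 ± 4.12 and 93.3 ± 18.8 CPM (SD, n = 3 each). The log2 fold change of -0.30 ± 0.14 (SE; 95% confidence interval -0.61 to 0.0078) did not pass (edgeR adjusted p = 0.192). Without leptin replicate 1 it was -0.44 and passed (edgeR adjusted p = 0.00919), and without leptin replicate 2 it was -0.15 (0.381). Without leptin replicate 1, 4761 of 16101 tested genes passed, compared with 1538 of 15685 with all libraries.

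CLCF1 encodes a cytokine that signals through the ciliary neurotrophic factor receptor complex. It stood at 23.7, 23.8 and 24.7 CPM in controls, and at 30.3, 14.8 and 21.8 CPM in leptin replicates 1 to 3. The controls were close together, and the leptin libraries lay on both sides of them. The estimate was a log2 fold change of -0.11 ± 0.21 (SE; 95% confidence interval -0.57 to 0.35; edgeR adjusted p = 0.776). IL11, of a cytokine tied to bone, platelet and fibrotic biology, was low, with 31 to 62 counts per library. It stood at 1.69, 2.80 and 3.72 CPM in controls and 3.29, 2.07 and 2.20 CPM with leptin, with overlap between the groups. Its log2 fold change of -0.11 ± 0.34 (SE; 95% confidence interval -0.86 to 0.64; edgeR adjusted p = 0.872) leaves changes of either sign within the interval at this depth.

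**Figure D1:**
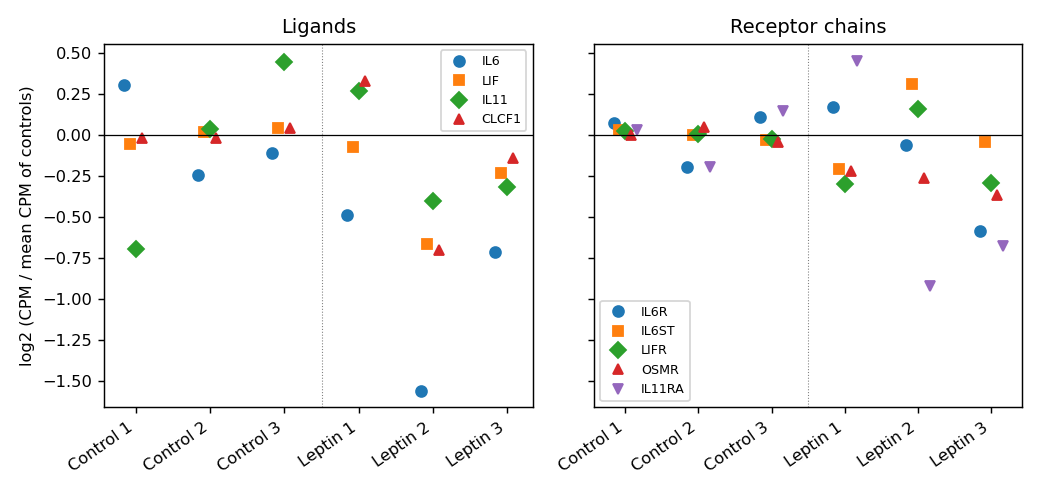
Level of each tested member in each library as log2 of CPM over the mean CPM of the controls, with ligands on the left and receptor chains on the right. Each symbol is 1 gene in 1 library. IL6 is lowest in leptin replicate 2, at -1.56, and LIF and CLCF1 stand at -0.67 and -0.71 there, while IL6ST stands at 0.31.

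All 4 ligand genes were highest among the leptin libraries in replicate 1 and lowest in replicate 2, an order held by 21.0% of all tested genes. The receptor gene IL11RA held it too, at 137%, 52.8% and 62.6% of its control mean in leptin replicates 1 to 3. Of the 9 tested members, 7 were highest in leptin replicate 1 and 5 lowest in leptin replicate 2. Among all tested genes 33.6% were lowest in leptin replicate 2, and the share highest in leptin replicate 1 was not computed. In leptin replicate 2 the percentages of the control mean were 34.0 for IL6, 61.3 for CLCF1, 63.1 for LIF and 75.8 for IL11. The receptor genes IL6ST and LIFR had the opposite place in that library, at 124% and 111% of their control means. These 2 genes had the lowest GC content of the family (36.6% and 36.2%), whereas LIF, IL11 and CLCF1 had 55.6% to 57.1% and IL6 44.5%. The part of GC content in this order was not tested.

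IL6ST, the shared gp130 chain, was among the most abundant receptor transcripts. It stood at 180, 177 and 173 CPM in controls and at 153, 219 and 171 CPM in leptin replicates 1 to 3. The leptin libraries lay on both sides of the controls. On the log2 scale the fold change was 0.034 ± 0.13 (SE; 95% confidence interval -0.26 to 0.33; edgeR adjusted p = 0.900), and its sign turned when library totals alone set the scale (-0.016).

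IL6R, the chain that binds IL-6 itself, stood at 16.3, 13.5 and 16.7 CPM in controls and 17.4, 14.8 and 10.3 CPM with leptin. Leptin replicate 3 was the lowest library and replicate 1 the highest, so the groups overlapped. The log2 fold change was -0.13 ± 0.19 (SE; 95% confidence interval -0.55 to 0.29; edgeR adjusted p = 0.707), and it was 0.051 without leptin replicate 3. IL11RA, which binds IL-11, had only 9 to 27 counts per library. Its level was 1.16, 0.994 and 1.26 CPM in controls and 1.56, 0.601 and 0.713 CPM with leptin, with overlap. The log2 fold change was -0.24 ± 0.45 (SE; 95% confidence interval -1.22 to 0.75; edgeR adjusted p = 0.774). These counts are uncertain, since 32.5% of the exon bases of IL11RA are shared with another gene on the same strand and read pairs over both were not counted.

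OSMR, the oncostatin M receptor chain, stood at 118, 122 and 115 CPM in controls and 102, 98.6 and 91.6 CPM with leptin. The groups did not overlap, and the spread within each was small. Means were 118 ± 3.94 and 97.3 ± 5.16 CPM (SD, n = 3 each), and the log2 fold change was -0.28 ± 0.10 (SE). Its unadjusted 95% confidence interval of -0.50 to -0.062 lay below 0, but with adjustment over the whole table it missed the threshold (edgeR adjusted p = 0.0953). It passed without leptin replicate 1 (log2 fold change -0.33, edgeR adjusted p = 0.0147), a setting in which 4761 of 16101 tested genes passed. The log2 fold change of OSMR was -0.18 with the GC trend removed (0.282). Of its exon bases, 3.19% overlap RICTOR on the opposite strand, which had up to 719 counts.

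LIFR, the LIF receptor chain, stood at 31.6, 31.3 and 30.6 CPM in controls and 25.3, 34.7 and 25.4 CPM with leptin. Leptin replicates 1 and 3 lay below the controls and replicate 2 above them. The log2 fold change was -0.13 ± 0.14 (SE; 95% confidence interval -0.44 to 0.17; edgeR adjusted p = 0.580), and 0.029 with the GC trend removed. CNTFR, the ciliary neurotrophic factor receptor chain, had 0 counts in every library but leptin replicate 1, which had 1. Taken as 3 counts, the limit that a count of 0 allows was 0.161 to 0.192 CPM, counting error only.

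**Figure D2:**
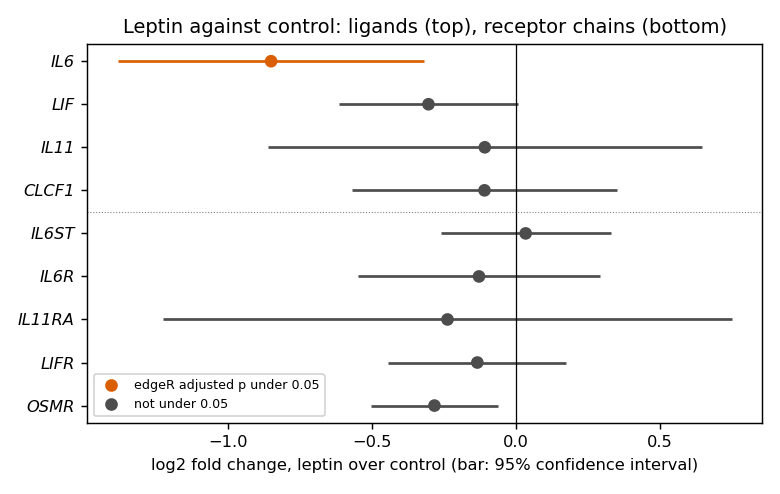
Log2 fold change of the 9 tested members, leptin over control, with 95% confidence intervals from the edgeR fit (not adjusted for multiple tests). The interval of IL6 runs from -1.38 to -0.32 and that of OSMR from -0.50 to -0.062, and the other 7 intervals include 0.

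Of the 9 tested members, 1 changed (11.1%), compared with 9.81% of all 15685 tested genes, so the share was near that of the whole table. At an unadjusted p under 0.05 there were 2 members, IL6 and OSMR, against a background of 27.6%. In 3 members, IL6, LIF and OSMR, the groups did not overlap (33.3%; background 32.2%). All 3 were lower with leptin. Of all tested genes, 16.2% had every leptin library below every control, out of the 32.2% without overlap in either direction. A negative log2 fold change was found for 8 of 9 members and for 49.2% of all tested genes, with medians of -0.13 and 0.0057. No member was higher by edgeR, DESeq2 or limma-voom, or at an unadjusted p under 0.05. DESeq2 called IL6 alone, and limma-voom called 0 members. Over all 15685 tested genes DESeq2 called 2234 and limma-voom 1316.

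Levels were compared between genes as CPM per kb of gene model. The model takes in every annotated exon base, 4321 for IL6 and 3871 for LIF, and can be longer than the transcript made. The order of the genes and their ratios depend on these lengths, and other lengths were not tried. In controls LIF led with 29.8 ± 1.06 CPM per kb (mean ± SD, n = 3), above 90.1% of tested genes. OSMR (16.5 ± 0.55), IL6ST (14.6 ± 0.31) and CLCF1 (13.1 ± 0.305) followed, and then IL6 (4.96 ± 1.02), LIFR (2.56 ± 0.043), IL6R (2.22 ± 0.245), IL11 (1.02 ± 0.38) and IL11RA (0.217 ± 0.026). Each neighbour in this order was separate from the next in all control libraries. With leptin, the libraries of OSMR and IL6ST overlapped, as did those of IL6ST and CLCF1, of IL6 and LIFR, and of LIFR and IL6R. Within single libraries the per-length level of LIF was 4.67 to 7.19 times that of IL6 in controls and 7.98 to 11.1 times with leptin, without overlap. IL6ST was 6.01 to 7.56 times IL6R in controls and 5.09 to 9.59 times with leptin. OSMR was 6.33 to 6.64 times LIFR in controls and 4.82 to 6.82 times with leptin. LIF was 2.21 to 2.32 times CLCF1 in controls and 1.71 to 2.33 times with leptin. The groups overlapped in the ratios of IL6ST to IL6R, OSMR to LIFR and LIF to CLCF1. None of these ratios was tested.

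**Figure D3:**
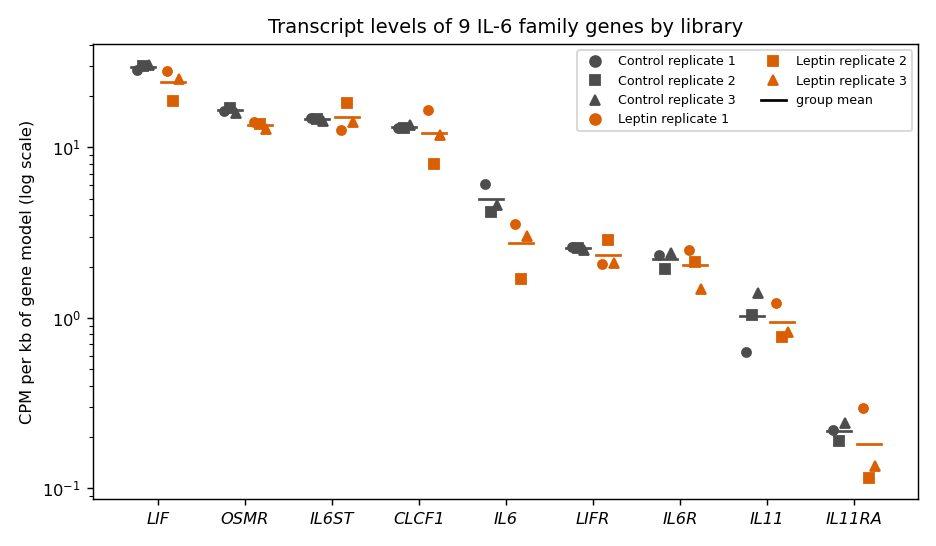
CPM per kb of gene model (log axis) for the 9 tested members in 3 control (grey) and 3 leptin (orange) libraries, with group means as lines. Points are single libraries. LIF has the highest control mean (29.8) and IL11RA the lowest (0.217), and the IL6 libraries with leptin lie below those of the controls.

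Most of the wider receptor family was at or near 0 counts. Of 19 further genes of the IL-6 and IL-12 receptor family and their ligands, 6 were tested and 6 had 0 counts in all libraries, among them the ligands OSM, CTF1, IL27 and IL31. The ligand gene CNTF had 1.22 and 0.705 CPM (edgeR adjusted p = 0.278) and the leptin receptor gene LEPR 15.5 and 11.6 CPM (0.165).

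Genes listed for gp130 signalling, among them its limiter SOCS3 and the protease gene ADAM10, did not pass the edgeR test. Of 19 tested genes, 0 changed by edgeR (background 9.81%) and 3 had an unadjusted p under 0.05 (background 27.6%). DESeq2 called 1, JAK1, and limma-voom called 0, compared with 2234 and 1316 of all 15685 tested genes. The kinase gene JAK1 had 384 ± 15.02 and 308 ± 25.6 CPM (mean ± SD, n = 3 each; log2 fold change -0.32, edgeR adjusted p = 0.0918). The kinase gene TYK2 had 100.1 ± 3.83 and 120 ± 10.8 CPM (0.26, edgeR adjusted p = 0.146), and 0.011 with the GC trend removed. STAT5A had 5.29 ± 0.98 and 7.81 ± 0.654 CPM (0.56, edgeR adjusted p = 0.0939). The groups did not overlap in these 3 genes and in ADAM10, 4 of the 19 (background 32.2%).

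Known targets of gp130 and STAT3 moved in both directions. Of 28 listed genes 19 were tested, of which 4 rose and 4 fell (background 5.71% higher and 4.09% lower), with a median log2 fold change of -0.0021. The acute-phase gene SAA1 fell from 51.5, 47.7 and 41.8 CPM to 18.3, 13.6 and 24.5 CPM, and the groups did not overlap. Its log2 fold change was -1.32 ± 0.19 (SE, edgeR adjusted p = 0.00407). Its close copy SAA2 fell from 6.11 to 1.85 CPM (edgeR adjusted p = 0.00861). Both are uncertain in size, since reads that fit several near-identical genes were not counted. FOS, an AP-1 subunit gene, fell from 3.06 to 0.655 CPM, and TIMP1, of a metalloproteinase inhibitor, from 164 to 117 CPM. The interferon regulatory factor gene IRF1 rose from 42.5, 42.8 and 42.2 CPM to 50.7, 95.7 and 118 CPM, a log2 fold change of 1.05 ± 0.25 (SE, edgeR adjusted p = 0.0321). The adhesion gene ICAM1 rose from 5.23 to 10.4 CPM, the angiogenic factor gene VEGFA from 217 to 355 CPM and the transcription factor gene CEBPB from 188 to 309 CPM. The liver-type acute-phase genes FGA, CRP and HP had 0 counts.

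Regulators of IL6 transcription and of its mRNA stability all passed the filter on low counts. Of 19 tested genes, 2 rose and 0 fell by edgeR (10.5%, near the background of 9.81%; median log2 fold change 0.063). At an unadjusted p under 0.05 there were 7 higher and 2 lower (background 27.6% in either direction). DESeq2 called 5 higher and 0 lower, and limma-voom 1 higher and 1 lower. Over all 15685 tested genes DESeq2 called 1338 higher and 896 lower, and limma-voom 700 and 616. CEBPB, a factor also called NF-IL6, is given above, and with the GC trend removed its log2 fold change went from 0.72 to 0.26 (edgeR adjusted p = 0.267). The stress factor gene ATF4 rose from 464 ± 27.5 to 740 ± 128 CPM (mean ± SD, n = 3 each; edgeR adjusted p = 0.0166). The mRNA-decay factor gene ZFP36L2 had 53.6 and 77.2 CPM (edgeR adjusted p = 0.0530). ZC3H12A, whose product degrades IL6 mRNA, and the NF-kB subunit genes were singled out after their values were seen. ZC3H12A had 207 and 107 CPM, without overlap (log2 fold change -0.95, edgeR adjusted p = 0.0844). RELB had 62.7 and 145 CPM (1.21, edgeR adjusted p = 0.0696) and NFKB2 had 84.5 and 111 CPM (0.39, 0.0667), both without overlap. RELA (0.17, edgeR adjusted p = 0.31) and NFKB1 (-0.076, 0.697) did not pass either.

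Several inflammatory genes driven by NF-kB fell as IL6 did. Of 15 tested genes 5 fell and 1 rose (background 4.09% lower and 5.71% higher), with a median log2 fold change of -0.86 compared with 0.0057 for all tested genes. The myeloid growth factor gene CSF2 stood at 12.5, 7.08 and 8.22 CPM in controls and 3.17, 0.668 and 3.56 CPM with leptin. As with IL6, leptin replicate 2 was the lowest library. Its log2 fold change was -1.89 ± 0.44 (SE, edgeR adjusted p = 0.0269). The chemokine gene CXCL3 fell from 6.85 to 2.47 CPM, CXCL8 from 109 to 49.8 CPM, the cytokine gene TNF from 12.5 to 6.86 CPM and IL1A from 38.0 to 21.5 CPM. ICAM1 was the gene that rose. Of 21 promoter windows of this list, 9 held an NF-kB match (11.3% of all windows), and these belonged to 9 of the 17 genes with a window. CXCL3 was the 1 of the 5 genes that fell with such a match, and CXCL8, CSF2, TNF and IL1A had none in these windows.

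**Figure D4:**
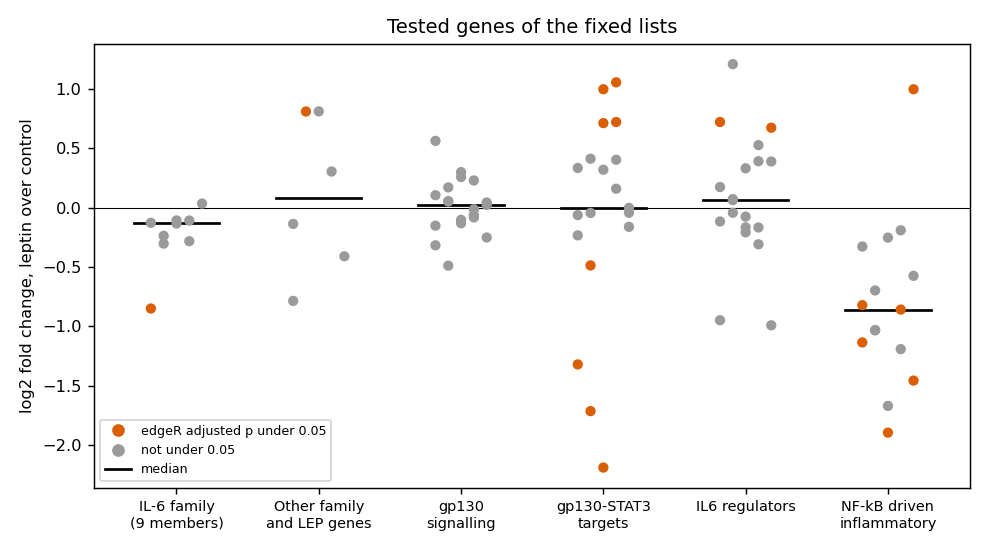
Log2 fold change, leptin over control, of every tested gene in the 9 members and the 5 further lists, with list medians as black lines. Orange points passed edgeR at an adjusted p under 0.05. The NF-kB list has the lowest median, at -0.86, and the members' median is -0.13.

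Over all these lists 74 distinct genes other than the members were tested, of which 6 rose and 9 fell (20.3% called, background 9.81%). Leaving out single libraries ended most of these 15 calls. Without Control replicates 1, 2 and 3, 1, 5 and 4 of the 15 still passed, and without leptin replicates 1, 2 and 3, 15, 8 and 3. SAA1 passed in all 6 leave-outs. The highest edgeR adjusted p on leaving out 1 library was reached without Control replicate 1 by SAA1 (0.0464), SAA2 (0.0696), IL1A (0.0641), ATF4 (0.119), TNF (0.129), CSF2 (0.136), VEGFA (0.160) and CXCL3 (0.188). It was reached without Control replicate 2 by FOS (0.0839), and without Control replicate 3 by ICAM1 (0.0690), TIMP1 (0.155) and CEBPB (0.187). For IRF1 it was 0.132 without leptin replicate 2 and for CXCL8 0.0588 without leptin replicate 3. With the GC trend removed 11 of the 15 passed. CEBPB, IRF1 (edgeR adjusted p = 0.0562) and CXCL3 (0.0519) were among those that did not, although the log2 fold changes of IRF1 (1.05) and CXCL3 (-1.43) stayed close to the 1.05 and -1.46 found without that removal.

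**Figure D5:**
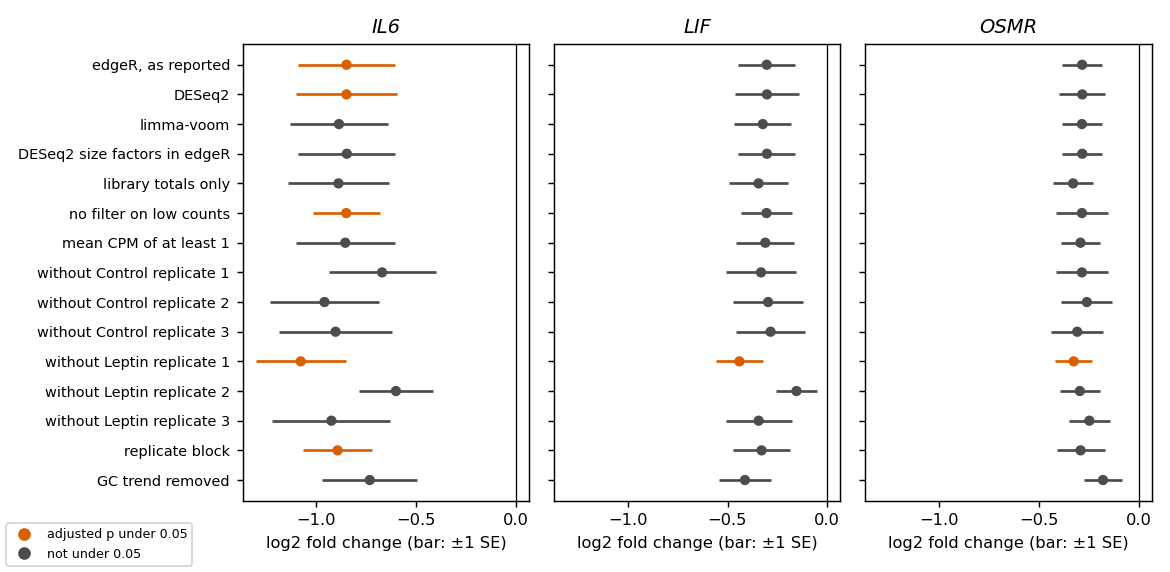
Log2 fold change (± 1 SE) of IL6, LIF and OSMR as reported and under 14 other settings. Orange marks an adjusted p under 0.05. All values are below 0, with IL6 between -1.08 and -0.60, and IL6 passes in 4 of the 14 settings.

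The protein-coding genes whose log2 CPM followed IL6 most closely over the 6 libraries were PCNP (Pearson's r = 0.999), ITGB3BP (0.998) and ADPGK (0.994), among 12925 compared. For LIF they were PEDS1 (0.997), LCLAT1 (0.997) and SRPX (0.995), and for IL6ST they were BRAF (0.996), ARFGEF2 (0.990) and C1orf50 (0.990). These values describe 6 libraries that share treatment and scaling, and r exceeded 0.95 for 186, 191 and 83 genes. Their edgeR adjusted p lay between 0.0708 and 0.879.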

How the data were processed

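RNA of OVCAR8 cells was sequenced as 6 libraries (3 PBS, 3 leptin), prepared with a directional kit per the labels' protocols. The deposited values are raw counts per gene; per the file headers, featureCounts 2.0.1 was run by the authors on read pairs over exons of GENCODE release 44, setting no strand, multi-mapping or multi-overlap option. The submitters' processing notes name HISAT2 2.0.5, featureCounts 1.5.0-p3, DESeq2 and hg38. Read pairs over exons of overlapping genes, also on opposite strands, and reads from near-identical copies were thus not counted. All 62700 IDs matched a symbol, and 0 other per-sample columns were present.

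All genes were fitted in R 4.3.3 with edgeR 4.0.16: filterByExpr (minimum count 10, minimum total 15), TMM, robust quasi-likelihood test, group as the only term, Benjamini-Hochberg adjustment over 15685 tested genes, threshold 0.05. SEs follow from fold change and F statistic. CPM uses TMM-scaled totals. Same-group libraries differed beyond sampling noise (chi-square per gene 3.73 to 27.1). Alternatives were DESeq2 1.42.0, limma-voom (limma 3.58.1), other scalings and filters, a threshold of 0.01, a replicate block, leave-outs, and subtraction of a GC trend per library (lowess, span 0.3, longest GENCODE 29 transcript; 97.2% of tested genes had a value). The fit was tested on simulated data.

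The members and lists were chosen with earlier results of these data known. Named were all members, every called gene of each list (up to 3 by smallest adjusted p where fewer passed) and the 3 genes most correlated with IL6, LIF and IL6ST (log2 CPM, prior count 2). The values of 1 listed gene, which is within the counts, are not reported here. Figures used Python 3.11.15 and matplotlib 3.10.9.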

Additional observations from a re-analysis of the deposited data

How the results depend on the processing

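The 1538 genes changed became 2437 with no filter on low counts, 873 with the GC trend removed, 274 at a threshold of 0.01, and 115 to 4761 when 1 library was left out. The 1 member changed, IL6, became 0 with limma-voom, DESeq2 size factors in edgeR, library totals only, a mean CPM of at least 1, a threshold of 0.01 and GC trend removal. The number was 0 to 3 when 1 library was left out. The 3 were IL6, LIF and OSMR without leptin replicate 1, where 4761 of 16101 tested genes passed. The 15 listed genes changed became 23 with DESeq2, which called 2234 of all tested genes. They became 5 at an adjusted p under 0.01 and 1 to 39 when 1 library was left out. The log2 fold change turned sign for IL6ST with library totals only (-0.016), for LIFR with the GC trend removed (0.029), and in some leave-outs for IL6R (-0.32 to 0.051), IL6ST (-0.13 to 0.13), IL11 (-0.37 to 0.18) and CLCF1 (-0.40 to 0.11). The cause was not tested; leave-outs also have fewer samples. IL6, LIF, OSMR and IL11RA stayed negative in all 14 settings, though IL11RA only just (-0.0044 without leptin replicate 2). In IL6, LIF and OSMR every leptin library lay below every control, so leaving out 1 library could hardly turn their sign. Deviations of same-numbered libraries from their group means showed little correlation over the tested genes (r = -0.049, 0.015 and -0.11). The labels do not say whether the numbers pair the libraries, and these values cannot show it. With the replicate block there were 1284 genes, 20 listed genes and 1 member, IL6 (edgeR adjusted p = 0.0119). Depth limits IL11, IL11RA and CNTFR, with at most 62, 27 and 1 counts in a library.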

Other observations

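Several members lie beside a relative in the genome that had a different number of counts (hg38, coordinates from the files). These counts are not divided by gene length. LIF (1087 to 2097 counts per library) lies 16.1 kb from OSM on chromosome 22, which had 0 counts in all 6 libraries. IL6ST (2651 to 3421 counts) lies 12.2 kb from IL31RA on chromosome 5, which had 5 to 11 counts. LIFR and OSMR lie 238 kb apart on chromosome 5, with 427 to 600 and 1475 to 2240 counts (their per-length ratio is given above). CNTFR and IL11RA lie 62.0 kb apart on chromosome 9, with 0 to 1 and 9 to 27 counts, of which those of IL11RA are uncertain because of shared exon bases. Within single libraries, the per-length level of IL6ST was 5.70 to 5.75 times that of LIFR in controls and 6.10 to 6.80 times with leptin, without overlap, a ratio singled out after its values were seen and not tested.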
